A study of Arabidopsis thaliana with 12 samples.

Results

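The UDP-glycosyltransferases of Arabidopsis thaliana were followed across an array series on the floral regulator LEAFY. Members were taken by name: every probe set annotated to a single gene whose symbol begins with UGT and a number. This gave 47 probe sets for 47 loci in 11 families, out of 22746 probe sets tested and 13436 with a single named gene. RefSeq lists 58 such symbols. The other 11 were not members, because 4 shared their probe set with another gene and 7 had no probe set named here. No member's identifier marked probes shared between genes. All samples were RNA of whole 9-day-old seedlings, 2 arrays for each of 6 groups. Of the 6 groups, 4 carried LEAFY-GR, in which LEAFY is joined to the steroid-responsive domain of the glucocorticoid receptor so that dexamethasone switches it on, and were sampled 8 h after treatment. Their treatments were dexamethasone with cycloheximide, cycloheximide alone, dexamethasone alone, and mock. Cycloheximide blocks protein synthesis. The other 2 groups were untreated seedlings, 35S::LFY plants, which express LFY constitutively from the 35S promoter, and the Landsberg erecta strain. The labels give neither the promoter that drives LEAFY-GR, nor the strain that carries it, nor the number of seedlings behind an array. No group without LEAFY-GR received dexamethasone, cycloheximide or mock treatment in the samples analysed here.

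UDP-glycosyltransferases move a sugar from a UDP-sugar onto a small acceptor molecule. In plants the acceptors include hormones such as auxin, cytokinin, abscisate, salicylate and jasmonate derivatives, flavonols, monolignols and hydroxycinnamates, glucosinolate precursors, sterols and foreign compounds. The sugar usually makes the acceptor more soluble, lets it be stored in the vacuole, and often takes an active hormone out of use. Many of the genes lie in tandem arrays of close relatives.

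The deposited signals had nearly the same trimmed mean on every array, about 150, and between 15% and 17.6% of the signals of an array lay under 10, with medians from 49.8 to 69.4. The 2 arrays of a group had a Pearson correlation of 0.959 to 0.979. Every group had 1 array from each of 2 lots, and no label states that both came from separate sowings or extractions. The p-values therefore rest on array-to-array spread that could be technical alone. For the GAPDH control, the 3′ probe set divided by the 5′ probe set gave 0.98 to 1.28 on the 4 cycloheximide arrays, 1.36 to 1.58 on the other 4 LEAFY-GR arrays and 1.62 to 2.13 on the 35S::LFY and Landsberg erecta arrays. In the same order the actin control gave 2.39 to 4.67, 4.21 to 7.69 and 4.19 to 9.02, and the ubiquitin control 1.42 to 2.27, 1.58 to 1.99 and 1.84 to 2.05, so that these 2 overlapped between the sets. Of 7 green-tissue markers, 2 were measured: RCA, the Rubisco activase, had signals of 4905.4 to 8376.9 and the light-harvesting protein gene LHCB4.1 had 3267.1 to 8019.0 over the 12 arrays. Of 6 root markers, EXPA7 (34.2 to 95.8) and PRX57 (113.6 to 318.4) were measured. The pollen gene AT59 was under 10 on 11 of 12 arrays, and none of the 5 flower or 3 seed markers had a probe set named here. Measured means here that the annotation names a probe set for that gene alone. A gene not measured may still be among the 8807 unnamed probe sets. The probe set of LFY is not named here, so the labels could not be checked against it.

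Most UGT probe sets were of middling brightness. The mean signal over the 12 arrays was over 100 for 20 members, 10 to 100 for another 20 and under 10 for 7. UGT78D3, a flavonol arabinosyltransferase, stayed under 10 on all 12 arrays, and 20 further members were under 10 on some arrays. Changes are given as differences of log2(signal + 10) with their standard errors, a scale that understates the change of dim genes. A member was counted as higher or lower where the adjusted p over all 22746 probe sets was under 0.05. In at least 1 of 7 comparisons 35 of the 47 members passed, beside 50.4% of all probe sets. The 12 that passed in none were UGT71B1, UGT71B8, UGT72E3, UGT73C2, UGT74F1, UGT76E2, UGT78D3, UGT84A1, UGT84B2, UGT85A3, UGT85A5 and UGT85A7. In the map of signals by array, the columns with cycloheximide stand apart for some members of the UGT71, UGT73, UGT76 and UGT84 families. They do so for genes of other families too, such as UGT78D1 and UGT88A1. A smaller set of genes parts the LEAFY-GR arrays from the 35S::LFY and Landsberg erecta arrays.

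**Figure D1:**
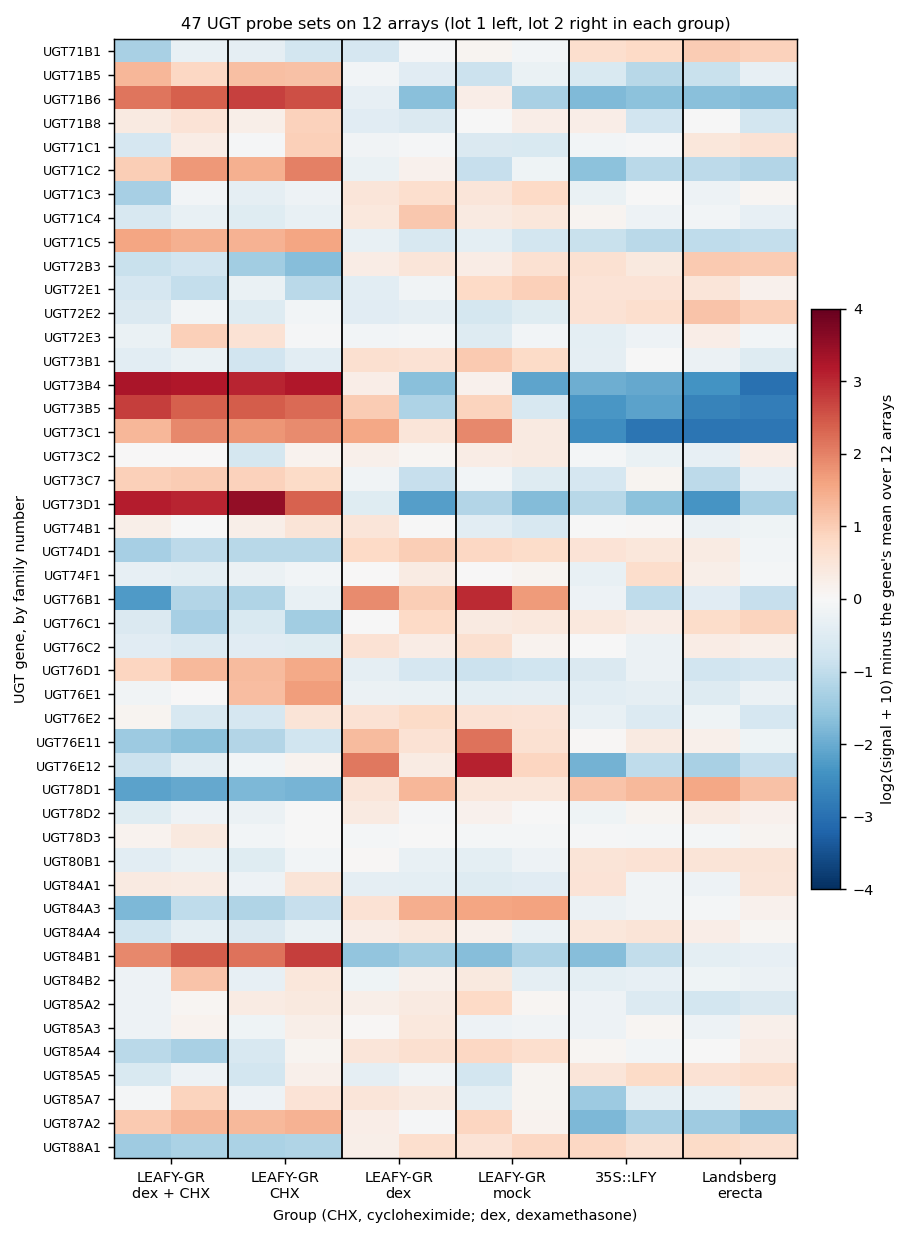
Heat map of the 47 UGT probe sets (down, by family number) on 12 arrays (across, lot 1 left and lot 2 right in each group). Colour is log2(signal + 10) minus the gene's own mean over the 12 arrays, so colours compare arrays within a gene and not genes with each other. UGT73D1, UGT73B4, UGT84B1 and UGT71B6 are reddest on the 4 cycloheximide arrays, and UGT73C1 is blue on the 35S::LFY and Landsberg erecta arrays.

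LEAFY activity was tested in 3 comparisons that share no arrays: dexamethasone with cycloheximide against cycloheximide, dexamethasone against mock, and 35S::LFY against Landsberg erecta. In the 2 with dexamethasone, the steroid's own effect cannot be told apart from that of LEAFY, since every dexamethasone-treated group carried LEAFY-GR. Across the 47 UGT genes 1 change passed in any of the 3 comparisons, a lower UGT76E1 where dexamethasone was added to cycloheximide. UGT76E1 glucosylates a hydroxylated jasmonate. With cycloheximide present 1 of 47 members passed, as lower, beside 0.193% of all probe sets, with 0.0572% lower, and 3 had an unadjusted p under 0.05. With dexamethasone alone 0 of 47 passed, beside 0.475% of all probe sets, and 2 had an unadjusted p under 0.05. In 35S::LFY seedlings 0 of 47 passed, beside 0.295% of all probe sets, and 2 had an unadjusted p under 0.05.

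Most changes of the members were small in all 3 comparisons. The log2 change lay within 0.5 of zero for 40 members with dexamethasone and cycloheximide against cycloheximide, for 39 with dexamethasone against mock and for 42 in 35S::LFY against Landsberg erecta. The median size of the change was 0.22, 0.23 and 0.23 in that order, beside 0.17, 0.20 and 0.17 over all probe sets. The median standard error of a member's change was 0.31, so a change of about that size could not be told from the spread between arrays. Larger changes could also fail to pass. UGT72E1 at -1.15 and UGT74B1 at 0.78 with dexamethasone against mock did not, nor did UGT85A4 at -0.92 with dexamethasone and cycloheximide against cycloheximide. The few calls therefore do not show that few members changed.

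**Figure D2:**
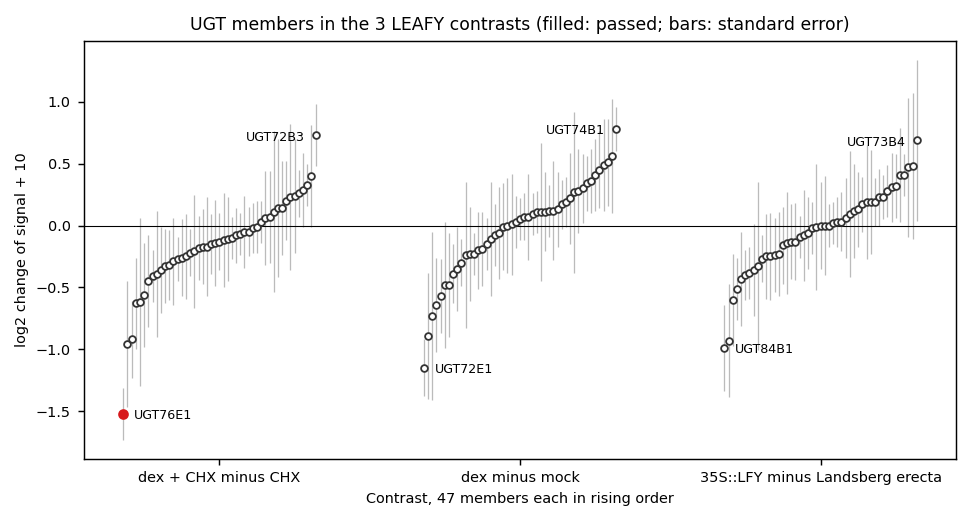
Log2 change of signal + 10 (y axis, bars: standard error of the fit) of the 47 UGT members in 3 comparisons, each sorted in rising order. The filled point, UGT76E1 at -1.52, is the 1 change that passed.

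UGT76E1 was dim on most arrays. Its signals were 3.7 and 5.2 with dexamethasone and cycloheximide, 25.4 and 38.1 with cycloheximide alone, 3.0 and 2.6 with dexamethasone, and 1.6 and 1.9 in mock. They were 1.3 and 1.7 in 35S::LFY and 0.6 and 2.9 in Landsberg erecta. The 2 cycloheximide arrays thus stood above the other 10, all of which lay under 10. Dexamethasone with cycloheximide against cycloheximide gave a log2 change of -1.52 ± 0.21 (adjusted p = 0.019), which was -1.37 in lot 1 and -1.66 in lot 2. Since the signals with dexamethasone and cycloheximide lay under the added 10, the value depends on that constant. It ranged from -1.94 to -0.69 over the other settings that kept this dim gene, all of which passed. With dexamethasone against mock the change was 0.12 ± 0.21 (adjusted p = 0.946). The difference between both dexamethasone responses was -1.64 ± 0.30 for UGT76E1, and it did not pass (adjusted p = 0.23). No member passed in that interaction, where 4 had an unadjusted p under 0.05 and 0.0308% of all probe sets passed. The call on UGT76E1 was lost without either array of dexamethasone with cycloheximide (adjusted p = 0.122 without lot 1 and 0.0839 without lot 2) and without the lot 2 array of cycloheximide (0.0772).

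The members with the smallest p-values for dexamethasone against mock did not pass. UGT72E1, which glucosylates the aldehydes of monolignols, had signals of 193.1 and 234.0 with dexamethasone, against 459.3 and 510.8 in mock. The groups did not overlap, and the log2 change was -1.15 ± 0.23 (adjusted p = 0.0648). UGT72E1 passed when dim probe sets were left out (adjusted p = 0.0446), and in no other fit with all 12 arrays. It also passed when either array of cycloheximide alone was left out, which lie outside this comparison. Without any 1 array of dexamethasone or mock it did not pass, with log2 changes of -1.28 to -1.02. UGT74B1, which acts in the core pathway of glucosinolate synthesis, had 576.2 and 402.4 with dexamethasone, against 299.6 and 254.9 in mock, a change of 0.78 ± 0.18 (adjusted p = 0.114). With cycloheximide present UGT72E1 differed by -0.13 ± 0.23 and UGT74B1 by -0.27 ± 0.18 in response to dexamethasone. UGT84A3, which makes hydroxycinnamate glucose esters, changed by -0.57 ± 0.30 with dexamethasone (adjusted p = 0.727). With cycloheximide present the smallest p-values after that of UGT76E1 belonged to UGT85A4 and UGT72B3, which did not pass either. UGT85A4 had 5.6 and 3.4 with dexamethasone and cycloheximide, against 11.1 and 25.3 with cycloheximide (-0.92 ± 0.31, adjusted p = 0.548), and UGT72B3 had 21.4 and 24.3, against 12 and 7.7 (0.73 ± 0.25, adjusted p = 0.563).

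In 35S::LFY seedlings the smallest p belonged to UGT84B1, which glucosylates the auxin indole-3-acetate. Its signals were 2.2 and 10.4 in 35S::LFY, against 20.6 and 22.1 in Landsberg erecta, a log2 change of -0.99 ± 0.35 (adjusted p = 0.604). The auxin glucosyltransferase gene UGT74D1 followed, with 391.7 and 366.6 in 35S::LFY, against 329.5 and 240.9 in Landsberg erecta (0.41 ± 0.17, adjusted p = 0.717). UGT73C1, which conjugates foreign compounds and O-glucosylates zeatin in vitro, differed by 0.19 ± 0.46 in this comparison, by -0.11 ± 0.46 with dexamethasone and by -0.21 ± 0.46 with dexamethasone and cycloheximide against cycloheximide.

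More UGT genes passed between mock-treated LEAFY-GR and untreated Landsberg erecta seedlings than in the 3 comparisons of LEAFY activity. Against Landsberg erecta 11 of the 47 members passed, 9 higher and 2 lower. Of all probe sets, 7.82% passed, 4% higher and 3.82% lower. The higher members included the xenobiotic and zeatin enzyme gene UGT73C1, the salicylate and isoleucic acid enzyme gene UGT76B1, the stress-responsive UGT73B5, and UGT87A2, which influences flowering time. The monolignol enzyme gene UGT72E2 and the sterol glucosyltransferase gene UGT80B1 were lower. The line and the mock treatment changed together here and cannot be told apart, and in whole seedlings fewer cells of a type and less RNA per cell cannot be told apart either. The GAPDH 3′ to 5′ ratio was 1.52 and 1.36 in mock-treated LEAFY-GR, against 1.71 and 2.13 in Landsberg erecta, while that of actin overlapped (7.69 and 5.88, against 9.02 and 4.33) and that of ubiquitin was 1.68 and 1.58, against 1.84 and 1.99. The root gene PRX57 had 168.6 and 191.2 in mock, against 306.9 and 287.3 in Landsberg erecta (-0.70 ± 0.19, adjusted p = 0.0513), and EXPA7 had 45.2 and 37.6, against 75.1 and 95.8 (-0.89 ± 0.31, adjusted p = 0.12). The part of either in the UGT differences was not tested.

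UGT73C1 was at 305.5 and 97.4 in mock-treated LEAFY-GR, against 1.2 and 1.3 in Landsberg erecta. Over all 8 LEAFY-GR arrays the signals were 97.4 to 311.4, and over the 4 other arrays 1.1 to 4.9, so the 2 sets were far from overlapping. The log2 change of mock against Landsberg erecta was 4.03 ± 0.46 (adjusted p = 0.000258), 4.82 in lot 1 and 3.25 in lot 2. Since the Landsberg erecta signals lay under the added 10, the value depends on that constant and ranged from 2.40 to 4.83 over the other settings, all of which passed.

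UGT87A2 had 900.7 and 536.2 in mock-treated LEAFY-GR, against 178.5 and 139.4 in Landsberg erecta, 2.07 higher on the log2 scale (± 0.24, adjusted p = 0.000305). All 8 LEAFY-GR arrays, at 473.9 to 1296.6, were above the 4 others, at 134.5 to 191.8. UGT76B1 had 770.1 and 310.6 in mock, against 62.5 and 42.2 in Landsberg erecta (3.02 ± 0.51, adjusted p = 0.00376). In contrast to UGT87A2, it did not separate the lines on every array, because its signals with cycloheximide were 10.7 to 70.2.

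UGT72E2 ran the other way, with 76.6 and 90.3 in mock, against 298.5 and 264.3 in Landsberg erecta (-1.64 ± 0.20, adjusted p = 0.000406). All 8 LEAFY-GR arrays, at 76.6 to 120.7, were below the 4 others, at 202.6 to 298.5. UGT80B1 had 68.6 and 79.6 in mock, against 135.8 and 136.5 in Landsberg erecta (-0.80 ± 0.20, adjusted p = 0.0333). This smaller difference was lost without any 1 array of mock, 35S::LFY or Landsberg erecta (adjusted p of 0.0589 to 0.172) and with arrays scaled to equal medians (0.0909) or equal quantiles (0.0538).

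**Figure D3:**
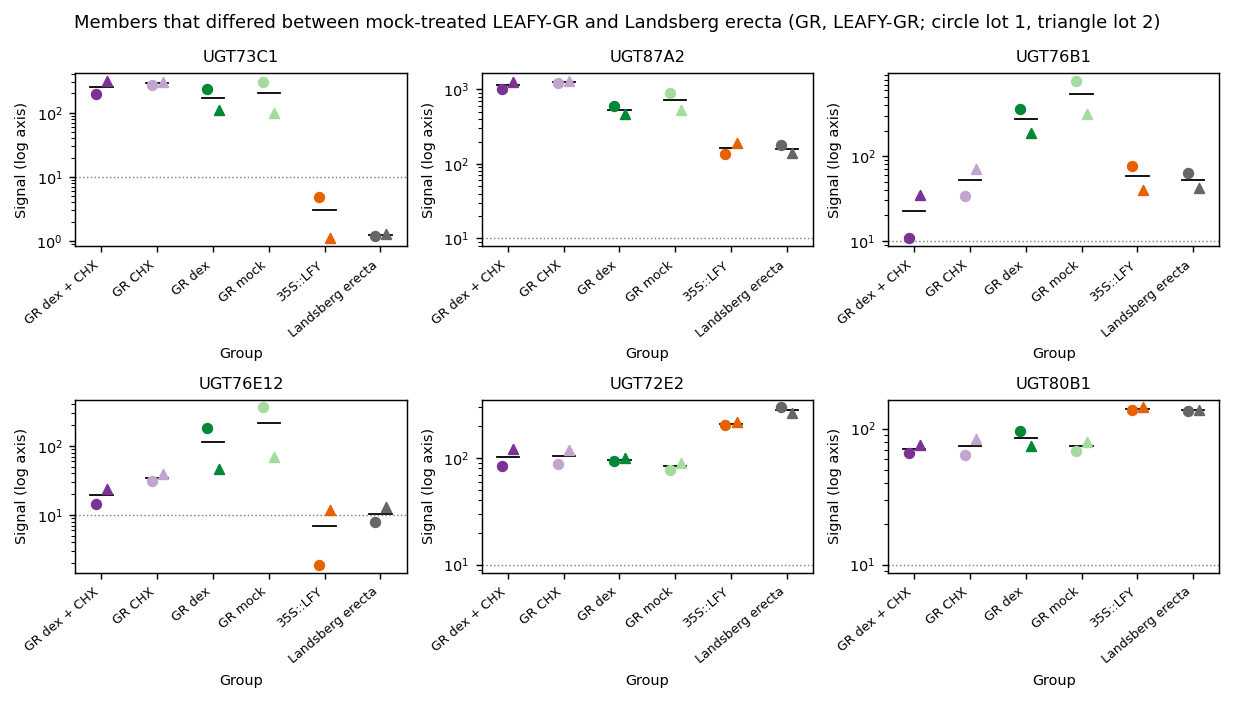
Signal on each array (log axis) of 6 UGT genes that passed between mock-treated LEAFY-GR and Landsberg erecta, by group. Circles are lot 1, triangles lot 2, horizontal bars the mean of the 2 arrays, and the dotted line marks a signal of 10. UGT73C1 is at 97.4 to 311.4 on LEAFY-GR arrays and at 1.1 to 4.9 on the others, while UGT72E2 is lower on all LEAFY-GR arrays.

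The other members higher in mock-treated LEAFY-GR were UGT76E12 (3.08 ± 0.68), UGT73B5 (2.83 ± 0.59), UGT84A3 (1.54 ± 0.30), UGT73B1 (1.29 ± 0.19), UGT85A2 (1.10 ± 0.21) and UGT74D1 (0.68 ± 0.17). By family the 9 higher members were 3 of 7 UGT73, 2 of 8 UGT76 and 1 each of 3 UGT74, 5 UGT84, 5 UGT85 and 1 UGT87 genes, beside 4% of all probe sets, and 0 of the 9 UGT71 genes passed. Over all 12 arrays, 7 members were higher on every LEAFY-GR array than on any other array, beside 4.59% of all probe sets, namely UGT71C2, UGT71C5, UGT73B5, UGT73C1, UGT76E12, UGT85A2 and UGT87A2. Another 4 were lower on every LEAFY-GR array, beside 10.3%, namely UGT71B1, UGT72E2, UGT80B1 and UGT85A5. The count of 11 fell to 5 without the lot 1 mock array, to 6 without the lot 1 Landsberg erecta array and to 7 without its lot 2 array, and UGT73C1, UGT87A2, UGT76B1, UGT72E2 and UGT73B1 passed in every such fit. Without the lot 2 mock array UGT74D1, UGT80B1 and UGT84A3 lost their calls, while UGT71B6 (1.96), UGT73B4 (2.85) and UGT76E11 (2.16) newly passed as higher. UGT76E11 also newly passed with dim probe sets left out (adjusted p = 0.0432). With lot as a block the count was 13, adding UGT84B1 (-1.12, adjusted p = 0.0201) and UGT85A5 (-0.95, adjusted p = 0.04) as lower.

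The lots differed within the LEAFY-GR line, and some of these genes carried the difference. UGT73B5 had 557.9 in lot 1 and 110.5 in lot 2 with dexamethasone, and 512.8 in lot 1 and 171.4 in lot 2 in mock. UGT76E12 had 180.8 and 46.0 with dexamethasone, and 360.6 and 69.6 in mock. UGT73B4, which conjugates breakdown products of the explosive TNT, had 277.3 and 66.6 with dexamethasone, and 260.9 and 46.2 in mock. The lot 1 array was higher in each pair. With UGT71B6 and UGT73C1, this made 5 members at least 2-fold higher in lot 1 in both groups on the log2(signal + 10) scale, beside 0.743% of all probe sets, and 0 members at least 2-fold lower, beside 0.106%. With cycloheximide present the lots of UGT73B4 differed by 0.06 with dexamethasone and by -0.16 without, on the log2 scale. Without the lot 1 mock array the changes of mock against Landsberg erecta no longer passed for UGT76E12 (adjusted p = 0.131) or UGT73B5 (0.104), nor did they without either Landsberg erecta array (0.12 and 0.0831 for UGT76E12, 0.0706 and 0.0887 for UGT73B5). UGT84A3 lost its call without either mock array or the lot 1 Landsberg erecta array (0.0513 to 0.0777), UGT85A2 without the lot 1 array of mock (0.0579) or Landsberg erecta (0.0797), and UGT74D1 without either mock array or the lot 2 Landsberg erecta array (0.079 to 0.263) or without the intensity trend (0.0776). What differed between the lots was not tested.

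More of the family passed with cycloheximide than in any other comparison made here. Cycloheximide alone against mock gave 28 of 47 members that passed, 14 higher and 14 lower. Of all probe sets 42.8% passed, 17.2% higher and 25.6% lower. Dexamethasone with cycloheximide against dexamethasone gave 26, 11 higher and 15 lower, beside 40.6% of all probe sets, 14.4% higher and 26.2% lower. The largest rises were of UGT73D1, UGT73B4, the auxin enzyme gene UGT84B1 and the abscisate enzyme gene UGT71B6. The largest falls were of UGT76B1, the hydroxycinnamate enzyme gene UGT84A3, UGT76E11 and the flavonol rhamnosyltransferase gene UGT78D1.

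These comparisons share no arrays with each other. In both, 11 members rose, beside 12.9% of all probe sets, and 12 fell, beside 21.7%. None of the 47 passed in opposite directions, beside 0.0484% of all probe sets, 8 passed in 1 of the comparisons and 16 in neither. The median size of a member's log2 change was 1.03 for cycloheximide against mock, beside 0.59 over all probe sets, and 0.98 with dexamethasone in both arms, beside 0.55. Counting only changes of at least 2-fold on the log2(signal + 10) scale, 12 members rose and 12 fell with cycloheximide against mock, beside 12.6% and 16.5% of all probe sets. On the 4 cycloheximide arrays, 12 members lay above all 8 other arrays, beside 15.3% of all probe sets, and 9 lay below, beside 25.2%. The 3′ to 5′ ratio of GAPDH was lowest on the same 4 arrays, while those of actin and ubiquitin overlapped, as given above, and LHCB4.1 fell by 0.87 ± 0.23 with cycloheximide against mock (adjusted p = 0.00874), while RCA was at -0.27 ± 0.26 and did not pass. The part of these in the UGT changes was not tested.

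**Figure D4:**
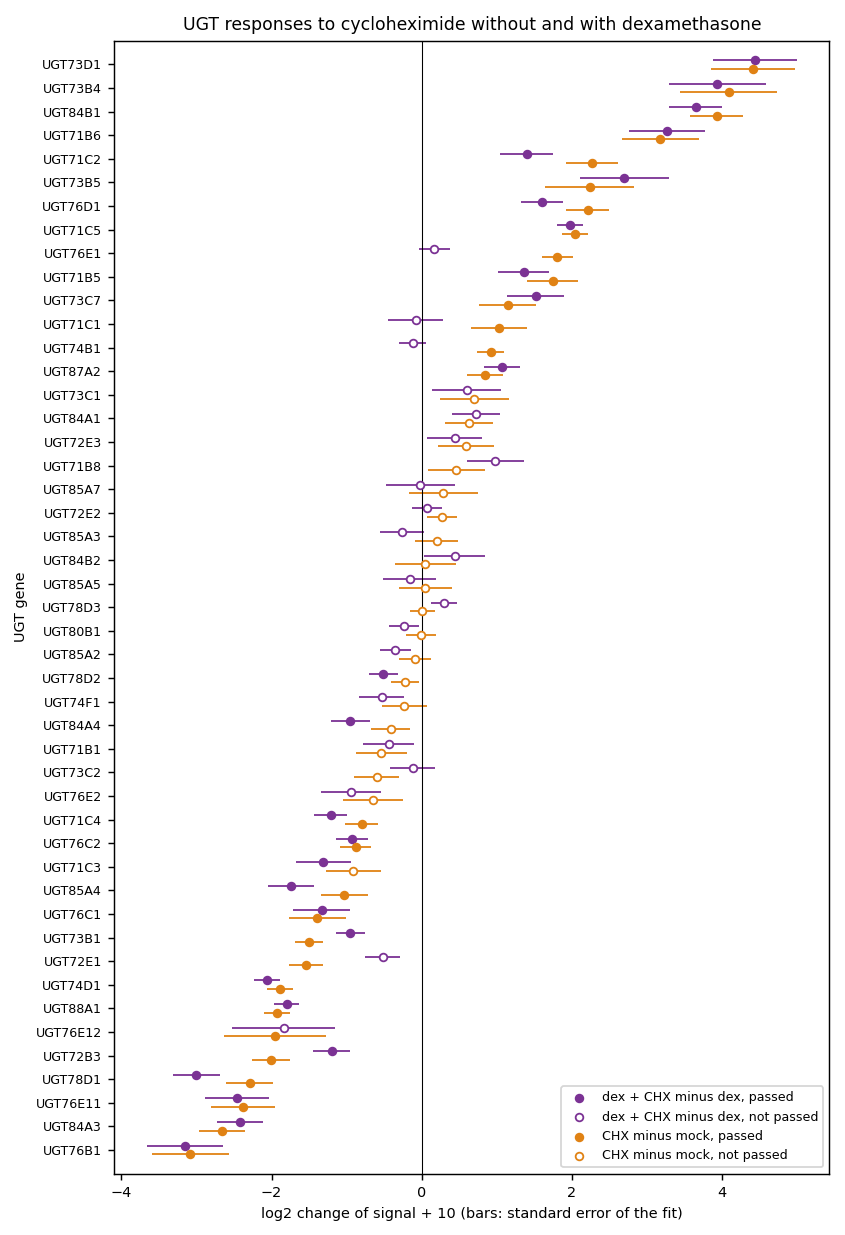
Log2 change of signal + 10 with cycloheximide (x axis, bars: standard error of the fit) for the 47 UGT genes, sorted by the change of cycloheximide against mock. Purple is dexamethasone with cycloheximide against dexamethasone, orange is cycloheximide against mock, and filled points passed. UGT73D1 lies at 4.44 and 4.41 and UGT76B1 at -3.15 and -3.08, and UGT76E1 passed in the orange comparison only.

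Of the 11 measured genes placed here with a hormone as reported acceptor, 4 rose and 4 fell with cycloheximide against mock. Of all probe sets 17.2% rose and 25.6% fell, and no test compared this group with the rest. UGT84B1 had 169.8 and 260.0 with cycloheximide, against 2.2 and 7.1 in mock (3.93 ± 0.35, adjusted p = 2.89e-06). UGT71B6 had 237.2 and 209.7, against 34.5 and 4.9 (3.18 ± 0.51, adjusted p = 0.000298). The other gene placed here as an abscisate enzyme gene, UGT71C5, had 796.4 and 906.1 with cycloheximide, against 224.2 and 175.9 in mock (2.04 ± 0.17, adjusted p = 1.32e-06). Both genes placed here as abscisate enzyme genes thus rose, as did UGT76E1 (1.81 ± 0.21). In the same order the 3 genes other than UGT76E1 changed by 3.65 ± 0.35, 3.27 ± 0.51 and 1.98 ± 0.17 where dexamethasone was present in both arms, and UGT76E1 changed by 0.17 ± 0.21 there (adjusted p = 0.588). The placing by acceptor may be incomplete, so other members may act on abscisate too. UGT71B8, near UGT71B6 by name, was at 0.46 ± 0.38 with cycloheximide against mock and did not pass.

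UGT76B1 had 33.6 and 70.2 with cycloheximide, against 770.1 and 310.6 in mock (-3.08 ± 0.51, adjusted p = 0.000423). The auxin enzyme gene UGT74D1 had 115.5 and 117.0, against 477.8 and 438.5 (-1.89 ± 0.17, adjusted p = 2.5e-06). Auxin enzyme genes thus moved both ways, UGT84B1 up and UGT74D1 down. The cytokinin N-glucosyltransferase genes UGT76C1 (-1.39 ± 0.38) and UGT76C2 (-0.88 ± 0.21) both fell, and with dexamethasone in both arms they fell by 1.33 ± 0.38 and 0.93 ± 0.21. UGT73C1 was at 0.70 ± 0.46 and did not pass, except without the lot 1 mock array (adjusted p = 0.0211). UGT74F1, a salicylate enzyme gene, and UGT84B2, a relative of UGT84B1, passed in neither comparison and averaged under 10 over the arrays. The calls on UGT76C1 were lost without the lot 2 cycloheximide array (adjusted p = 0.095) or the lot 2 mock array (0.0573), and that on UGT76C2 without the lot 1 mock array (0.0599).

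Among the 8 genes placed here under phenylpropanoid, benzoate or stress-linked function, 2 rose and 2 fell with cycloheximide against mock, beside 17.2% and 25.6% of all probe sets. The count depends on the placing, in which UGT73C1 stands with the hormone genes and UGT73B4 in no role group. UGT76D1, which glucosylates dihydroxybenzoates, had 114.9 and 137.8 with cycloheximide, against 18.6 and 20.1 in mock (2.21 ± 0.28, adjusted p = 4.52e-05). UGT73B5 had 1520.1 and 1365.5, against 512.8 and 171.4 (2.24 ± 0.59, adjusted p = 0.00875), and lost its call without the lot 2 mock array (0.0991). Both rose with dexamethasone present too, by 1.60 ± 0.28 and 2.7 ± 0.59. UGT84A3 had 39.9 and 50.3 with cycloheximide, against 336.3 and 338.8 in mock (-2.66 ± 0.30, adjusted p = 1.86e-05), and UGT72E1 had 215.0 and 118.8, against 459.3 and 510.8 (-1.54 ± 0.23, adjusted p = 0.00019). With dexamethasone in both arms UGT84A3 fell by 2.42 ± 0.30, while UGT72E1 was at -0.52 ± 0.23 and did not pass (adjusted p = 0.098), except without either array of cycloheximide alone (0.0235 and 0.0231). UGT72E2 was at 0.27 ± 0.20 with cycloheximide against mock and did not pass.

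UGT78D1 had 4.0 and 3.3 with cycloheximide, against 57.0 and 56.6 in mock (-2.29 ± 0.31, adjusted p = 7.44e-05), and 1.1 and 1.7 with dexamethasone and cycloheximide, against 58.7 and 111.5 with dexamethasone (-3.0 ± 0.31). It was under 10 on all 4 cycloheximide arrays and at least 56.6 on the other 8. UGT78D2, which glucosylates flavonols and anthocyanidins, fell by 0.51 ± 0.19 in the second comparison (adjusted p = 0.0473), a call lost with lot as a block (0.0501), under both other scalings (0.152 and 0.283), without the intensity trend (0.0842), and without the lot 1 array of dexamethasone (0.318) or of dexamethasone with cycloheximide (0.269) or any 1 array of mock, 35S::LFY or Landsberg erecta (0.0541 to 0.0646). UGT74B1 had 485.2 and 583.8 with cycloheximide, against 299.6 and 254.9 in mock (0.92 ± 0.18, adjusted p = 0.00111), and was at -0.12 ± 0.18 with dexamethasone in both arms. UGT80B1 was at -0.01 ± 0.20 and -0.23 ± 0.20 and passed in neither.

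Of the 22 members not placed in a role group, 6 rose and 7 fell with cycloheximide against mock, beside 17.2% and 25.6% of all probe sets. UGT73D1 had 648.8 and 284.0 with cycloheximide, against 15.2 and 7.0 in mock (4.41 ± 0.56, adjusted p = 5.23e-05). With dexamethasone and cycloheximide it had 491.6 and 459.0, against 30.4 and 2.3 with dexamethasone (4.44 ± 0.56). It was dim on all 8 arrays without cycloheximide, at 30.4 or less. UGT73B4 had 1975.2 and 2210.3 with cycloheximide, against 260.9 and 46.2 in mock (4.09 ± 0.65, adjusted p = 0.000284), and the change was 2.87 in lot 1 and 5.30 in lot 2. UGT71C2, UGT71B5 and UGT73C7 rose in both comparisons, by 2.27, 1.75 and 1.15 against mock, and UGT71C1 rose by 1.03 ± 0.37 in the first only.

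UGT76E11 had 32.7 and 44.4 with cycloheximide, against 420.6 and 136.2 in mock (-2.38 ± 0.42, adjusted p = 0.000616). UGT88A1 had 120.4 and 126.7, against 454.7 and 549.2 (-1.93 ± 0.17, adjusted p = 2.17e-06). Here the 2 arrays of each group lay close together, unlike those of UGT76E11 in mock. UGT72B3 (-2.01 ± 0.25), UGT73B1 (-1.50 ± 0.19), UGT85A4 (-1.03 ± 0.31) and UGT71C4 (-0.80 ± 0.22, lost without the lot 1 cycloheximide or the lot 2 mock array, at 0.0675 and 0.0649) fell as well, and with UGT88A1 and UGT76E11 all 6 also fell with dexamethasone in both arms. UGT76E12 fell by 1.95 ± 0.68 (adjusted p = 0.0375), was at -1.84 ± 0.68 with dexamethasone (0.0502), and lost the first call without either cycloheximide array (0.129 and 0.0926) or the lot 1 mock array (0.367), and without the intensity trend (0.0514). The first call on UGT71C1 was lost without the lot 2 cycloheximide array (0.33) or either mock array (0.117 and 0.131), that on UGT73C7 without either cycloheximide array (0.104 and 0.0662) or the lot 2 mock array (0.169), and that on UGT85A4 without the lot 1 cycloheximide array (0.134) or either mock array (0.0902 and 0.0535). That on UGT71C1 was also lost without any single array of the dexamethasone, 35S::LFY or Landsberg erecta groups (0.0528 to 0.0584). UGT87A2 rose by 0.84 ± 0.24 against mock, a call lost without either lot 2 array (0.0734 without that of cycloheximide and 0.165 without that of mock), and by 1.07 ± 0.24 with dexamethasone in both arms. UGT71C3 was at -0.91 ± 0.37 in the first comparison (adjusted p = 0.0683, and 0.0276 with lot as a block) and fell by 1.31 ± 0.37 in the second. In that second comparison, calls were lost without the lot 2 dexamethasone array for UGT71B5 (0.057), UGT71C3 (0.0761), UGT73C7 (0.0801), UGT76C1 (0.145) and UGT84A4 (0.0629), and without its lot 1 array for UGT71C2 (0.0502). Without an array of dexamethasone with cycloheximide they were lost for UGT71B5 (0.059), UGT71C3 (0.147) and UGT84A4 (0.0815) in lot 1 and for UGT71C2 (0.0748) and UGT76C1 (0.127) in lot 2.

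By family, cycloheximide against mock left 5 higher and 1 lower of the 9 UGT71 genes, 4 higher and 1 lower of the 7 UGT73 genes, and 2 higher and 5 lower of the 8 UGT76 genes. Of the 5 UGT85 genes 1 was lower, and none of the 4 UGT72 genes was higher while 2 were lower. These counts stand beside 17.2% of all probe sets higher and 25.6% lower, and no test compared the families. Adjacent genes on the chromosome did not always move alike. In 9 groups at least 2 neighbouring UGT loci, with no other RefSeq gene between them, were measured. UGT73D1 and UGT73C7 have consecutive locus numbers, as do UGT76E12 and UGT76E11, but this rule did not group them. With cycloheximide against mock UGT73D1 and UGT73C7 both rose (4.41 and 1.15), and UGT76E12 and UGT76E11 both fell (-1.95 and -2.38). The adjacent UGT73B5 and UGT73B4 both rose, and the adjacent cytokinin genes UGT76C2 and UGT76C1 both fell. In the row of UGT71C5, UGT71C4 and UGT71C3, the abscisate gene UGT71C5 rose by 2.04 and UGT71C4 fell by 0.80. Next to UGT84A3, UGT84A4 was at -0.41 ± 0.26 with cycloheximide against mock and fell by 0.95 ± 0.26 with dexamethasone in both arms, while UGT84A1 was at 0.63 ± 0.32 and 0.72 ± 0.32 and passed in neither. UGT85A2, UGT85A5 and UGT85A3 passed in neither. UGT76E2, the neighbour of UGT76E1, had 12.5 and 41.2 with cycloheximide, against 43.6 and 42.6 in mock, and did not pass (adjusted p = 0.0297 without the lot 2 cycloheximide array). With dexamethasone in both arms it passed without either array of cycloheximide alone (0.0374 and 0.0372), but not with all arrays. UGT73C2, next to UGT73C1, averaged under 10 and passed in no comparison with all arrays. The probe sets of near relatives can take up some of each other's RNA, which could not be checked here.

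**Figure D5:**
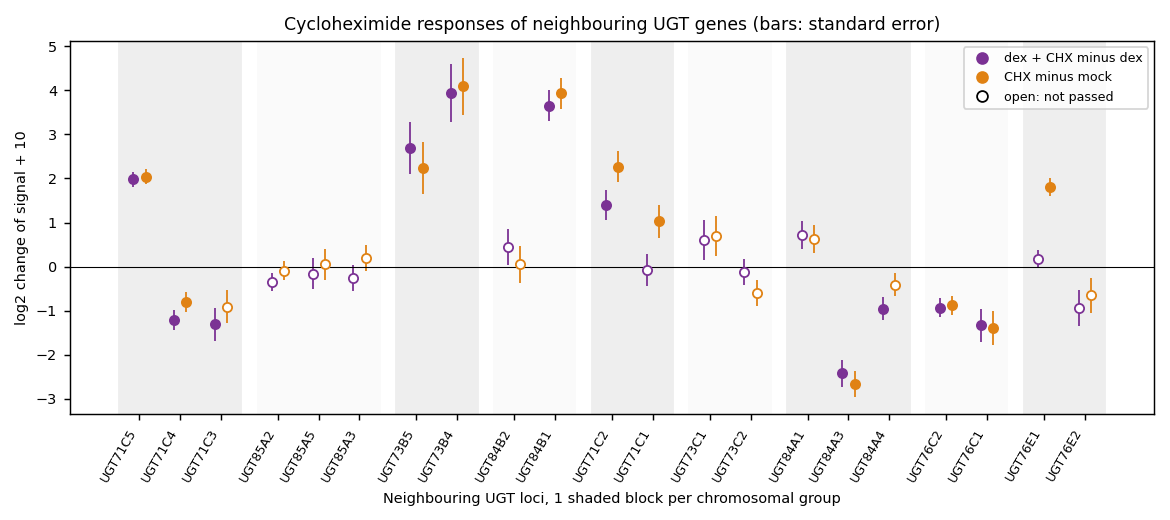
Log2 change of signal + 10 with cycloheximide (y axis, bars: standard error of the fit) for the 9 chromosomal groups with at least 2 measured neighbouring UGT loci, 1 shaded block per group. Purple is dexamethasone with cycloheximide against dexamethasone, orange is cycloheximide against mock, and filled points passed. UGT73B5 and UGT73B4 lie together above zero, while UGT71C5 lies at 1.98 and 2.04 and its neighbour UGT71C4 at -1.21 and -0.80.

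Another 7 probe sets measured a UGT gene outside the naming rule, 3 that are shared with another gene and 4 whose symbol does not begin with UGT. In the comparisons with cycloheximide 3 of the 7 passed, and 1 of these also passed between mock-treated LEAFY-GR and Landsberg erecta. A probe set shared by UGT73B2 and UGT73B3, relatives of UGT73B5 by family name, had 1586.8 and 847.8 in mock-treated LEAFY-GR, against 241.2 and 161.2 in Landsberg erecta (2.50 ± 0.34, adjusted p = 0.00085). It rose by 1.01 ± 0.34 with cycloheximide against mock (adjusted p = 0.0312) and by 1.09 ± 0.34 with dexamethasone in both arms. The gene of UGT72B1, an enzyme for monolignols and chlorinated foreign compounds that the annotation calls GT72B1, fell by 1.04 ± 0.38 and 1.42 ± 0.38 in the same order. The probe set that UGT89B1 shares with another gene fell by 1.42 ± 0.33 and 1.62 ± 0.33. The other 4, for UGT71D1 with another gene, UGT79B1, UGT79B6 and UGT80A2, passed in no comparison.

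Genes of the pathways that make or use the same acceptors were sparse among the named probe sets. Of 192 entries in 11 lists 30 had a probe set named for that gene alone, and the brassinosteroid and UDP-sugar lists had none. The others may be on the array without a name here. In the detoxification list, of 11 measured tau-class glutathione transferases, enzymes that like many UGTs conjugate foreign compounds, 2 rose and 5 fell with cycloheximide against mock, a comparison in which 17.2% of all probe sets rose and 25.6% fell. GSTU22 (4.22 ± 0.39) and GSTU25 (4.05 ± 0.65) rose, and GSTU20 (-2.70 ± 0.23) and GSTU26 (-2.09 ± 0.27) were among those that fell. Of 8 auxin genes, GH3.1 (3.81 ± 0.33) and GH3.3 (3.3 ± 0.40), which join auxin to amino acids, rose and 2 fell. Of the 3 phenylpropanoid genes, CCR2, a cinnamoyl-CoA reductase gene, rose by 6.99 ± 0.41 and HCT, which acts in monolignol synthesis, fell by 1.99 ± 0.12. BCAT4, the 1 glucosinolate gene measured, fell by 3.74 ± 0.17. With dexamethasone against mock 1 of the 30 rose, GH3.17, at 1.62 ± 0.29 (adjusted p = 0.0366), and none fell, beside 0.475% of all probe sets passing. GH3.17 also rose with dexamethasone and cycloheximide against cycloheximide (3.41 ± 0.29, adjusted p = 0.000408). With cycloheximide against mock it was lower (-1.86 ± 0.29, adjusted p = 0.000251). The lists for flavonoids (2 measured), cytokinin (2), salicylate (1) and abscisate (1) had no change that passed with cycloheximide against mock, and the 1 jasmonate gene, AT5G05600, rose by 0.75 ± 0.20.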

How the data were processed

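Signals are Affymetrix intensities on a linear scale, 1 per probe set and array, deposited by the authors for 22810 probe sets; the software behind them was not given in the sources used here, and no detection calls or background values were used. Their mean after trimming 2% at each end was 150.01 to 150.02 on all 12 arrays, so they were used as deposited. The 64 control probe sets were left out. Names came from the array's annotation (14016 probe sets, 13513 with 1 gene and 503 with several) and RefSeq genes of TAIR10.1, which left 8807 probe sets unnamed. Group means of log2(intensity + 10) were fitted over all 12 arrays with limma 3.58.1 (R 4.3.3), with 6 residual and 5.3 prior degrees of freedom and an intensity trend, and p-values were adjusted by Benjamini-Hochberg over 22746 probe sets. The fit was tested on simulated data. Python 3.11.15, pandas 2.3.3, numpy 2.4.6 and matplotlib 3.10.9 made summaries and plots. The labels' lot pairs arrays across groups, and same-lot deviations from the group means correlated at 0.05 to 0.33, over 0.1 in 11 of 15 pairs of groups. The number of arrays limits the precision. Named genes were UGT73C1 and UGT76E1, all members that passed in a LEAFY comparison or the 3 smallest p-values there, the highest and lowest called members of the other comparisons and their chromosomal neighbours, and up to 3 genes of each related list. Further members were named after their values were seen, so that every called member is given. The members and lists were chosen with earlier results of these data known. Alternatives were another pseudocount, 2 other scalings, leaving out dim probe sets, lot as a block, no intensity trend, and leaving out each array.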

Additional observations from a re-analysis of the deposited data

How the results depend on the processing

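Over the 47 members and 7 comparisons, 6167 changes were computed under other settings, of which 6058 kept their side of the threshold, 76 fell short of it, 33 newly passed and 0 reversed a call. Most of these values belonged to changes that had not passed, and most single arrays left out lay outside the comparison. The total therefore does not measure how firm the calls are. With dexamethasone against mock the count of members that passed was 1 with dim probe sets left out and 0 to 1 with single arrays left out. With dexamethasone and cycloheximide against cycloheximide it was 0 with dim probe sets left out, because UGT76E1 averages under the minimum of 30, and 0 to 1 with single arrays left out. Without 1 array it was 0 in 35S::LFY against Landsberg erecta and in the interaction, 21 to 29 for cycloheximide against mock, 22 to 28 with dexamethasone in both arms and 5 to 11 for mock against Landsberg erecta. Lot as a block, a paired fit, gave 0, 1, 0, 29, 25, 13 and 0 for dexamethasone, dexamethasone with cycloheximide, 35S::LFY, cycloheximide, cycloheximide with dexamethasone in both arms, mock against Landsberg erecta and the interaction, and it changed no other call than those given. No member carries the suffix of shared probes, so leaving such probe sets out would remove no member, and that fit was not made. Scaling arrays to equal medians moved the median change of all probe sets from -0.17 to -0.01 for cycloheximide with dexamethasone in both arms, where members then counted 12 higher and 14 lower, and from -0.09 to 0.04 for mock against Landsberg erecta, where they counted 9 and 1. Dim signals limit the test too: 12 members averaged under 30 and were left out by that minimum.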
